A study of Mus musculus with 9 samples.

Results

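Claudins, occludin and zonula occludens 1 build the tight junction, the belt that seals neighbouring epithelial cells to each other. The members were 10 such genes: the claudins Cldn2, Cldn3, Cldn4, Cldn6, Cldn7, Cldn12, Cldn15 and Cldn23, the occludin gene Ocln, and Tjp1, which encodes zonula occludens 1. They were taken as every probe set whose platform annotation named a single one of these symbols. That gave 16 probe sets of the 45037 on the array that are no array control, and 10 of the 18193 genes that at least 1 probe set named alone. No probe set named a member together with another gene.

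Claudins are membrane proteins whose outer loops meet between cells, and their mixture sets how tight the seal is. Some claudins tighten it, such as Cldn3 and Cldn4, while Cldn2 and Cldn15 form pores for small cations. Occludin sits in the same strands, and the scaffold protein zonula occludens 1 ties claudins and occludin to the actin cytoskeleton. In the gut these proteins lie between the epithelial cells that line the lumen.

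RNA from the terminal colon of mouse embryos, labelled hindgut and embryonic day 14 (14.5 days in the series text), was hybridised to Affymetrix arrays (MOE430 version 2), 3 per genotype and 9 in all. Ednrb null embryos (arrays 29, 37 and 41) were Ednrb -/-, with a lacZ allele in both copies of the gene for endothelin receptor type B. Ednrb NCC null embryos (arrays 2, 5 and 6) were labelled Ednrb-FLEX(NCC-/-), a deletion of Ednrb restricted to the NCC, read here as neural crest cells; the gene that drives this deletion is not given in the sources used here. Wild type embryos (arrays 1B, 1C and 1D) carried neither change. The labels do not say whether an array held 1 embryo or a pool, so p-values measure the spread between these arrays. Values are RMA intensities on the log2 scale, where a difference of 1 is a doubling, and a probe set was called at a Benjamini-Hochberg adjusted p under 0.05 in limma over all 45037 probe sets. Levels of different probe sets cannot be ranked against each other.

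The arrays had median intensities of 111.66 to 115.74 and correlated at r = 0.9932 to 0.9967 within a genotype and 0.9881 to 0.9928 between genotypes. The brightest Ednrb probe set averaged 9.13 ± 0.33 in Ednrb null and 11.02 ± 0.07 in wild type hindguts (SD, n = 3 each), a log2 difference of -1.89 (adjusted p = 2.88e-05). In Ednrb NCC null hindguts it averaged 11.17 ± 0.14, a difference of 0.15 from wild type (adjusted p = 0.696), so whole tissue does not check that label. Genes of enteric neural crest and neurons fell in both: 5 of 6 in Ednrb null and 4 of 6 in Ednrb NCC null against wild type. Of all genes, 2.29% and 0.984% were called lower there. Epithelium was present, with the epithelial adhesion gene Epcam at 12.40 to 13.05 in all arrays. Cdx2, a transcription factor of the hindgut epithelium picked outside the naming rule after its values were seen, stood at 6.35 to 7.35. These 2 levels are not comparable. Cdx2 differed from wild type by 0.56 in Ednrb NCC null and 0.15 in Ednrb null hindguts, neither called in limma (adjusted p = 0.0564 and 0.665). The Actb control probe sets, read as a measure of RNA integrity, had a 3' minus 5' log2 difference of 0.87 ± 0.06 in Ednrb null hindguts, against 1.21 ± 0.18 in the Ednrb NCC null hindguts and 1.18 ± 0.13 in the wild type ones (SD, n = 3 each). The Ednrb null arrays did not overlap the others in this Actb measure, so its part cannot be told apart from that of the genotype. For the Gapdh control the same difference was 0.12 ± 0.03, 0.23 ± 0.10 and 0.19 ± 0.07 in the same order (SD, n = 3 each). There the Ednrb null arrays overlapped both other genotypes. Only the Actb difference was used as a covariate below. Both mutants were set against the same 3 wild type arrays.

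Among the 16 probe sets, 1 was called in Ednrb null against wild type hindguts, a Cldn3 probe set that was higher, where 5.03% of all probe sets were called and 2.51% were called higher. None was called in Ednrb NCC null against wild type hindguts, where 3.58% of all probe sets were called, although 4 of the 16 had an unadjusted p under 0.05 in limma. Between the mutants, 4 probe sets of Cldn4, Cldn7 and Ocln were called, all of them lower in Ednrb null than in Ednrb NCC null hindguts, where 4.41% of all probe sets were called and 2.57% were called lower. The 4 became 1 without Ednrb null array 29, 0 without Ednrb null array 41, 2 without Ednrb NCC null array 2, 1 without Ednrb NCC null array 5 and 0 without Ednrb NCC null array 6. The share of all probe sets called fell in the same fits, to 1.92%, 2.42%, 3.73%, 2.26% and 2.03% in that order. The median of the 16 differences from wild type was 0.08 in Ednrb null hindguts (0.03 over all probe sets) and 0.22 in Ednrb NCC null hindguts (0.01 over all probe sets). Between the mutants it was -0.21 (0.02 over all probe sets).

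**Figure D1:**
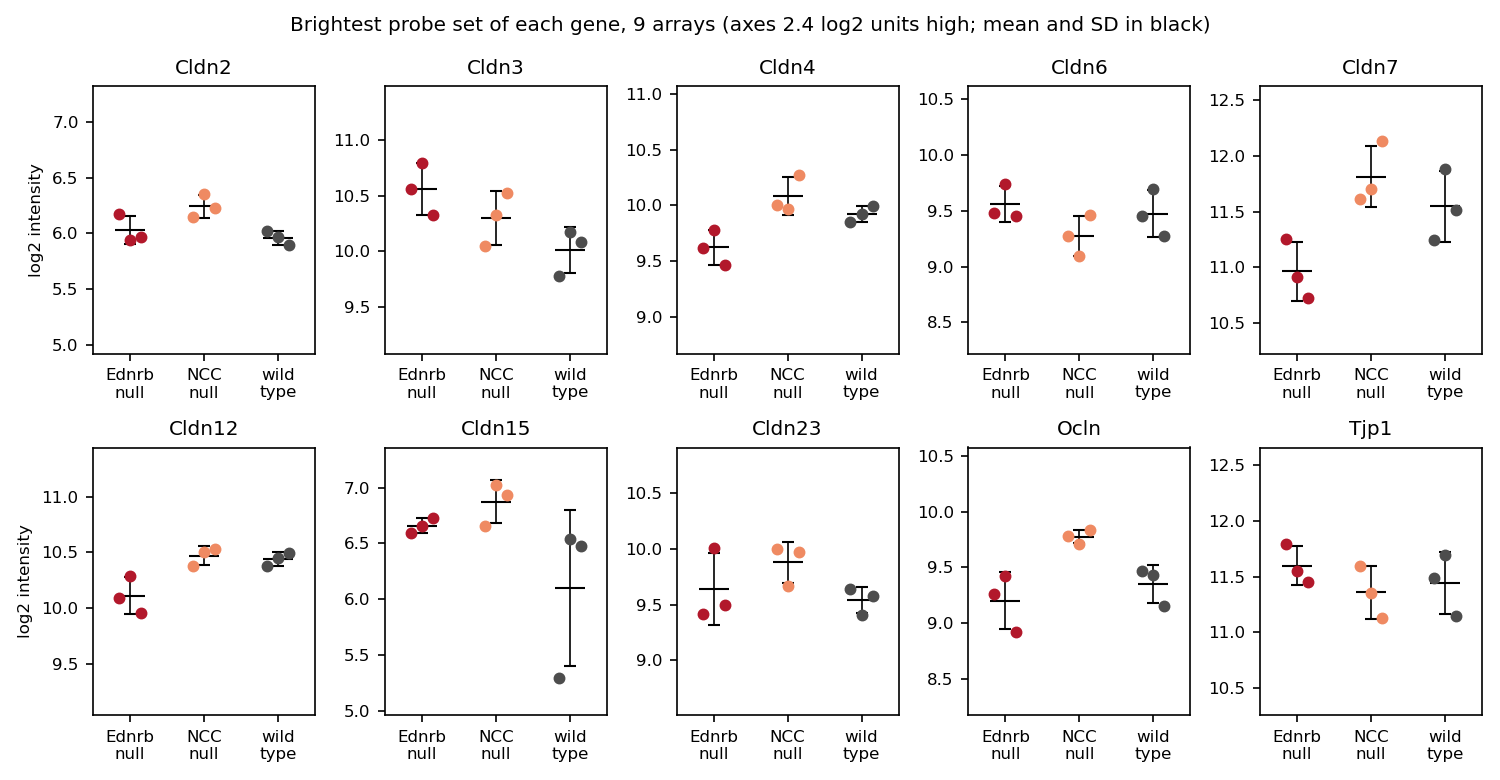
Log2 intensity of the brightest probe set of each of the 10 genes in the 9 arrays, 1 point per array, with the mean and SD of each genotype in black and every axis 2.4 log2 units high. Cldn4, Cldn7 and Ocln lie lower in all 3 Ednrb null than in all 3 Ednrb NCC null arrays, and Cldn15 shows 1 wild type array far below the other 8.

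Arrays of 2 genotypes were also counted as not overlapping where every array of one lay above every array of the other. In Ednrb null against wild type hindguts, 4 of the 16 probe sets lay higher without overlap (12.7% of all probe sets) and 3 lay lower (7.93% of all). In Ednrb NCC null against wild type hindguts, 5 lay higher (11.6% of all) and 0 lay lower (7.76% of all). In Ednrb null against Ednrb NCC null hindguts, 1 lay higher (12% of all) and 6 lay lower (9.28% of all). Those 6 were both Ocln probe sets, both Cldn12 probe sets, Cldn4 and Cldn7.

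**Figure D2:**
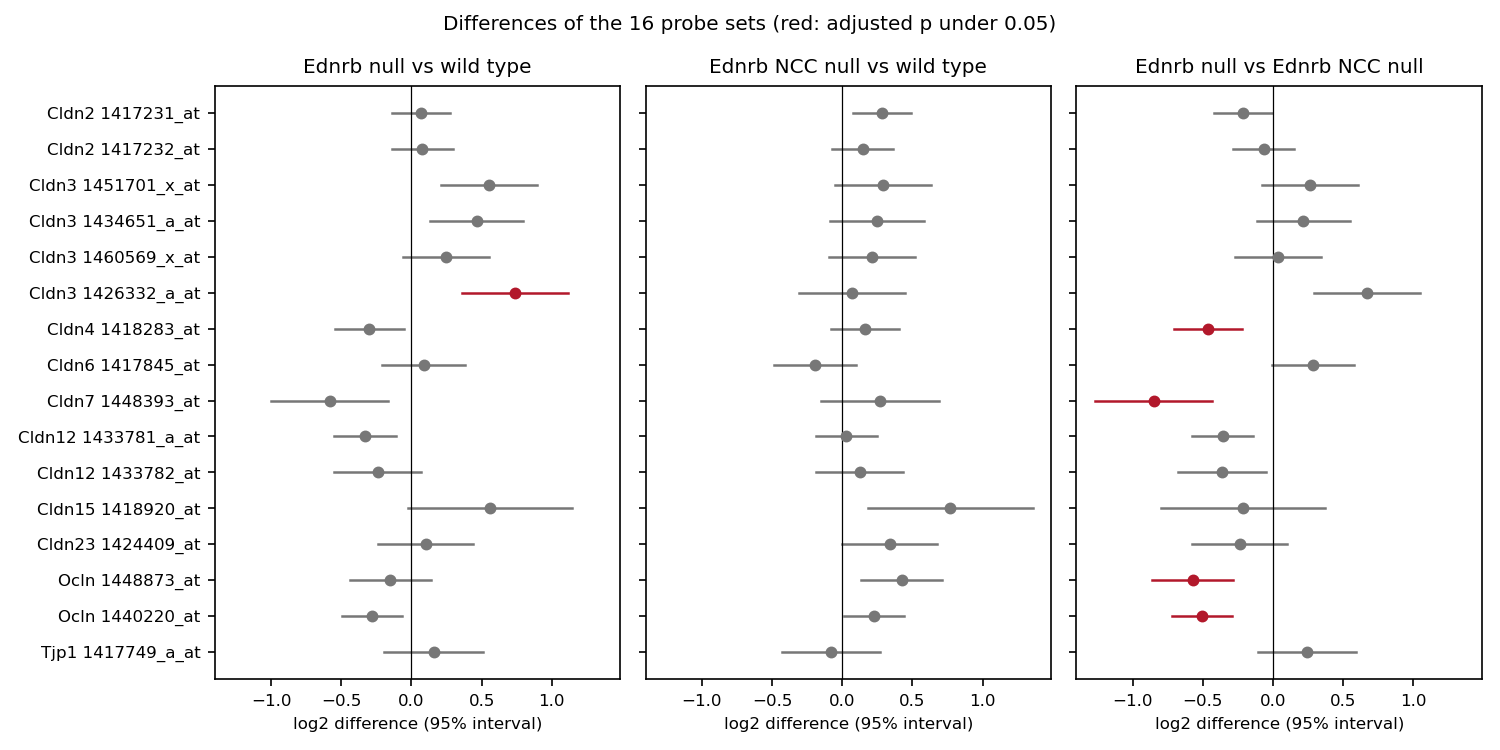
Log2 differences of the 16 probe sets with 95% intervals from limma, a panel per comparison, with calls at an adjusted p under 0.05 in red. The Cldn3 probe set 1426332_a_at is called in the first panel at 0.74, no probe set in the second, and Cldn4, Cldn7 and both Ocln probe sets in the third at -0.46 to -0.85.

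The promoters of the sealing claudins Cldn3, Cldn4 and Cldn7 and of Ocln are shown because these were the members called in a comparison and because Cldn3 and Cldn4 are neighbouring protein-coding genes on chromosome 5. The sequences are RefSeq's, build GRCm38.p6, from 250 bases before to 50 after the start of the first listed transcript. They cover chr5:134985964-134986263 on the plus strand for Cldn3, chr5:134946885-134947184 on the minus strand for Cldn4, chr11:69964529-69964828 on the plus strand for Cldn7 and chr13:100552669-100552968 on the minus strand for Ocln. Each is written 5' to 3' on the strand of its gene, and capitals mark the E-box CAGGTG or its other strand CACCTG, the letters that Snai1, Snai2, Zeb1 and Zeb2 can bind.
Cldn3: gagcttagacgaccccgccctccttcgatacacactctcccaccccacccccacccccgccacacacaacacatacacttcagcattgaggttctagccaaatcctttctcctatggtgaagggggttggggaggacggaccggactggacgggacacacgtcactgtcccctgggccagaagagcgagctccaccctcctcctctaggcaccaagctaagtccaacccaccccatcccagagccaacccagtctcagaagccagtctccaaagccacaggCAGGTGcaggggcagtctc
Cldn4: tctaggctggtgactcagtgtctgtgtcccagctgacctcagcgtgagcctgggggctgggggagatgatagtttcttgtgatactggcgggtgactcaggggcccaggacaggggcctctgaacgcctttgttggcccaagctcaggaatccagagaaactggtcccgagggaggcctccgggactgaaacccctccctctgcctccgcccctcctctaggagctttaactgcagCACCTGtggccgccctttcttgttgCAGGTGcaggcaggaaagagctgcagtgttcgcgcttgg
Cldn7: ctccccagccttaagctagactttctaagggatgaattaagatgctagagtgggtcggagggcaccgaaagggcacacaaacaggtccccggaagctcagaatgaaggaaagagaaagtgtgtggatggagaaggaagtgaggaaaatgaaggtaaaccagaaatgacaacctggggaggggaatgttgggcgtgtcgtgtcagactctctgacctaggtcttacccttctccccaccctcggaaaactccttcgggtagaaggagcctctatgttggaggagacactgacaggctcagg
Ocln: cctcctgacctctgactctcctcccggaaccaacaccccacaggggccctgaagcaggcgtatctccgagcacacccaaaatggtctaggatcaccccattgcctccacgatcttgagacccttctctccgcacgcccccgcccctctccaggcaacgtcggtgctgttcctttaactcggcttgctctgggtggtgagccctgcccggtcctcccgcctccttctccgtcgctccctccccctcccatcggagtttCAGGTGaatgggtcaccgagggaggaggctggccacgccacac

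In these first entries, Cldn4 held 2 such E-boxes, Cldn3 and Ocln 1 each and Cldn7 0. The second entries of Cldn7 and of Ocln, which are not shown, held 2 each. Of the 10 genes, 9 had a promoter entry, and 4 of these had an E-box in the first entry, where 20% of the first entries of 27025 genes had one. In any entry 5 of the 9 had one, where 22.6% of the genes did. The letters AACCNGTT, which grainyhead-like factors can bind, were found on either strand in 0 members and in 2.01% of the same 27025 genes. A match describes the letters of this window and shows no binding.

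Cldn3 had 4 probe sets, all of them with a higher mean in Ednrb null than in wild type hindguts, and 1 passed the test. That one, the dimmest, 1426332_a_at, stood at 8.70, 8.98 and 8.65 in Ednrb null embryos, 7.73, 8.32 and 8.28 in Ednrb NCC null embryos and 7.79, 8.26 and 8.07 in wild type embryos. All 3 Ednrb null arrays lay above the other 6. The difference of Ednrb null from wild type was 0.74 ± 0.17 (SE), 1.67-fold, with a 95% interval of 0.36 to 1.12 and an adjusted p of 0.0324 in limma. From Ednrb NCC null it was 0.67 ± 0.17 (SE), with an adjusted p of 0.0546. The difference between Ednrb NCC null and wild type was 0.07 (adjusted p = 0.898).

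The brightest Cldn3 probe set, 1451701_x_at, stood at 10.56, 10.79 and 10.33 in Ednrb null embryos, 10.05, 10.33 and 10.53 in Ednrb NCC null embryos and 9.78, 10.17 and 10.09 in wild type embryos. Ednrb null did not overlap wild type, while Ednrb NCC null overlapped both. The differences of Ednrb null from wild type were 0.55 (adjusted p = 0.0753) for this probe set, 0.46 (adjusted p = 0.123) for 1434651_a_at and 0.25 (adjusted p = 0.407) for 1460569_x_at. Against Ednrb NCC null the same 3 differed by 0.26, 0.22 and 0.03, with adjusted p of 0.452, 0.540 and 0.943. The probe sets correlated with each other at r = 0.60 to 0.96 over the 9 arrays.

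**Figure D3:**
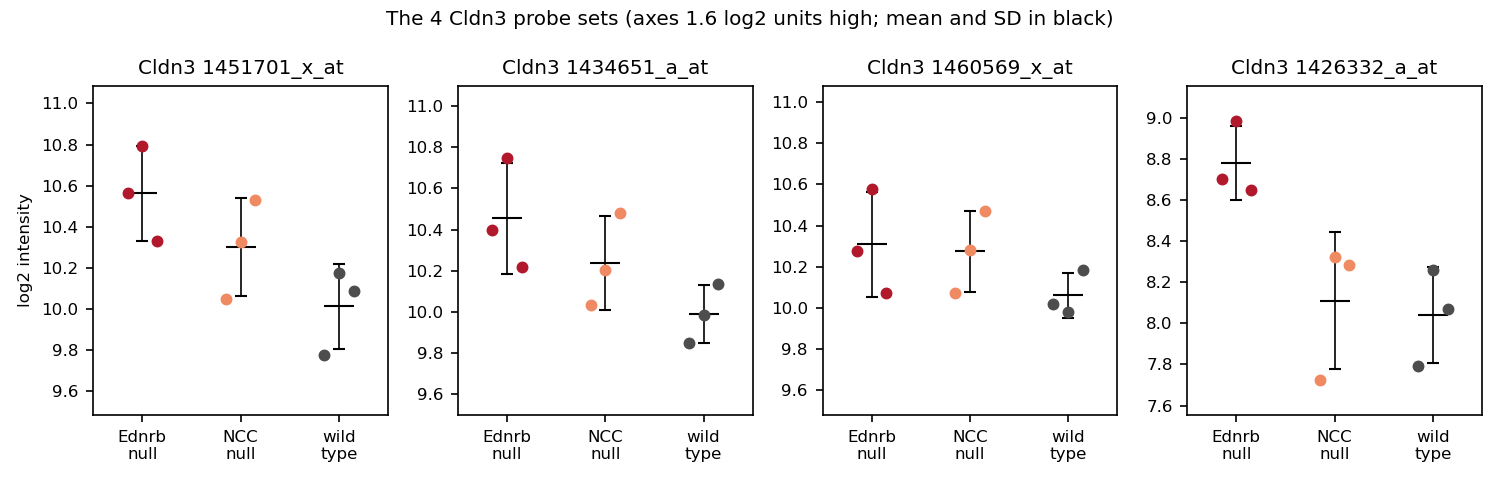
Log2 intensity of the 4 Cldn3 probe sets in the 9 arrays, 1 point per array, with the mean and SD of each genotype in black and every axis 1.6 log2 units high. The Ednrb null arrays stand apart from the other 6 on 1426332_a_at, at 8.65 to 8.98, and overlap both other genotypes on 1460569_x_at.

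The Cldn3 call was not kept without Ednrb null array 29 (adjusted p = 0.0813), 37 (0.128) or 41 (0.059), or without wild type array 1B (0.136) or 1D (0.0738). With the Actb 3' minus 5' difference as a covariate, the difference was 0.18 (adjusted p = 0.798). In that fit 1.2% of all probe sets were called in Ednrb null against wild type hindguts, against 5.03% without the covariate. The difference of the same probe set from Ednrb NCC null passed the threshold without the dimmest 40% of probe sets (adjusted p = 0.0419), with trended and robust moderation (0.046), with array weights (0.0392) and without wild type array 1C (0.048).

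Cldn4, a sealing claudin and, with Cldn3, a receptor of Clostridium perfringens enterotoxin, was lower in Ednrb null than in Ednrb NCC null hindguts. It stood at 9.62, 9.78 and 9.47 in Ednrb null embryos, 10.01, 9.97 and 10.28 in Ednrb NCC null embryos and 9.85, 9.92 and 9.99 in wild type embryos. The 3 Ednrb null arrays were the lowest of the 9, and the other genotypes overlapped. Ednrb null was lower than Ednrb NCC null by a log2 difference of -0.46 ± 0.11 (SE), 1.38-fold, with an adjusted p of 0.0412 in limma. Against wild type the difference was -0.30 (adjusted p = 0.179), with a 95% interval of -0.54 to -0.06. Ednrb NCC null differed from wild type by 0.16 (adjusted p = 0.522). The call against Ednrb NCC null was not kept without Ednrb null array 29 (adjusted p = 0.136) or 41 (0.129), Ednrb NCC null array 2 (0.0638), 5 (0.066) or 6 (0.151), or wild type array 1B (0.0565) or 1C (0.0522), nor in a fit of those 2 genotypes alone (0.0686).

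Cldn7 lies along the sides of gut epithelial cells, where it binds Epcam, and mice that lack it have damaged intestinal mucosa. It stood at 11.25, 10.91 and 10.72 in Ednrb null embryos, 11.61, 11.70 and 12.13 in Ednrb NCC null embryos and 11.24, 11.88 and 11.52 in wild type embryos. Ednrb null lay below Ednrb NCC null without overlap, and overlapped wild type only through array 1B. Ednrb null was lower than Ednrb NCC null by a log2 difference of -0.85 ± 0.19 (SE), 1.80-fold, with an adjusted p of 0.03 in limma. The difference from wild type was -0.58 (adjusted p = 0.123), and Ednrb NCC null differed from wild type by 0.27 (adjusted p = 0.547). The call was not kept without Ednrb null array 37 (adjusted p = 0.0859) or 41 (0.109) or Ednrb NCC null array 5 (0.0735) or 6 (0.116).

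The pore-forming claudins Cldn2 and Cldn15 were not called in any comparison. Cldn2, the cation and water pore of leaky epithelia, had 1417231_at at 6.18, 5.94 and 5.97 in Ednrb null embryos, 6.15, 6.35 and 6.23 in Ednrb NCC null embryos and 6.02, 5.97 and 5.89 in wild type embryos. Ednrb NCC null lay above wild type without overlap, by 0.28 (adjusted p = 0.141). Its other probe set took only 4 distinct values over the 9 arrays and differed by 0.15 at most (adjusted p = 0.529 in Ednrb NCC null against wild type).

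Cldn15, the sodium pore of the intestine, stood at 6.60, 6.66 and 6.73 in Ednrb null embryos, 6.66, 7.03 and 6.94 in Ednrb NCC null embryos and 5.29, 6.54 and 6.47 in wild type embryos. All 6 mutant arrays lay above all 3 wild type arrays, but array 1B was the one far below the rest. Ednrb null differed from wild type by 0.56 (adjusted p = 0.316) and Ednrb NCC null by 0.77 (adjusted p = 0.156), neither of them called. Without wild type array 1B, the differences were 0.15 and 0.37. The mutants differed from each other by -0.21 (adjusted p = 0.767).

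Array 1B was also low in mesothelial genes, the genes of the sheet that covers the outer gut wall. The mean of the 6 mesothelial markers was 8.28 to 8.51 in Ednrb null embryos, 8.59 to 8.83 in Ednrb NCC null embryos and 6.19 to 8.25 in wild type embryos, with array 1B the lowest. The genes whose levels most resembled Cldn15 over the 9 arrays, given outside the naming rule after their values were seen, were Muc16 (Pearson r = 0.98), Myrf (0.98) and Upk3b (0.97). Muc16 and Upk3b are on the mesothelial list. In array 1B they stood at 5.03 for Muc16, 8.96 for Myrf and 6.04 for Upk3b, each the lowest of the 9 arrays. These correlations are descriptions over 9 arrays, and the part of the mesothelium in the Cldn15 difference was not tested.

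**Figure D4:**
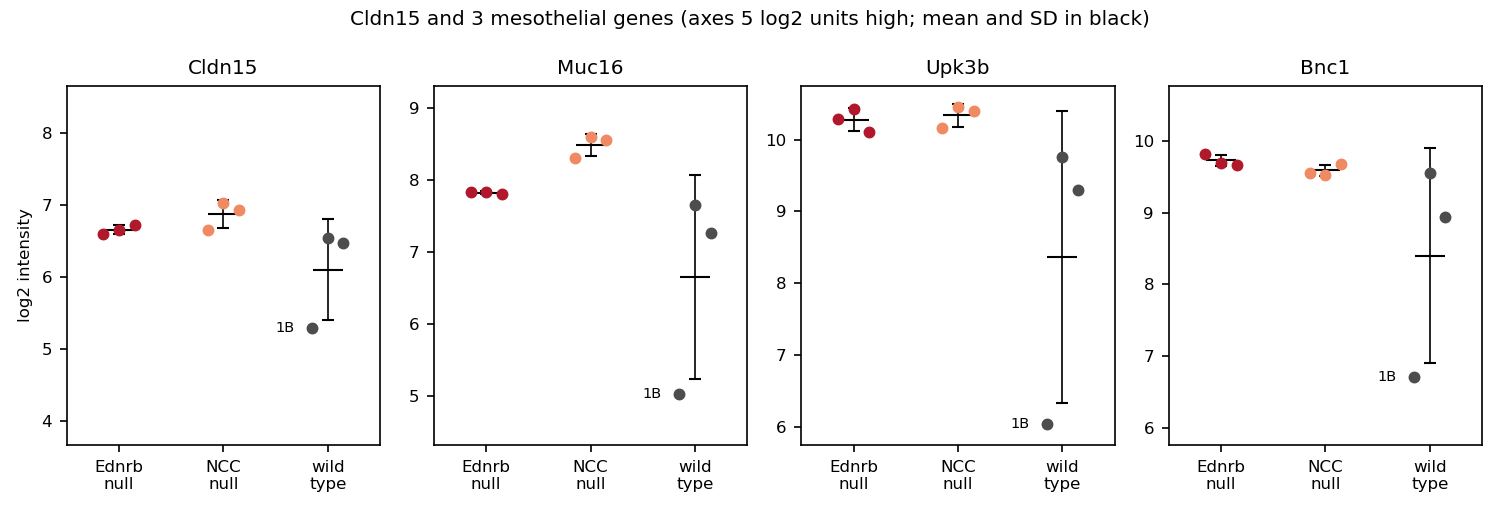
Log2 intensity of Cldn15 and of the mesothelial genes Muc16, Upk3b and Bnc1 in the 9 arrays, 1 point per array, with the mean and SD of each genotype in black and every axis 5 log2 units high. Wild type array 1B is the lowest point in every panel, at 5.29 for Cldn15 and 6.71 for Bnc1.

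The remaining claudins were not called in any comparison. Cldn6, an embryonic claudin of early epithelia, stood at 9.48, 9.74 and 9.46 in Ednrb null embryos, 9.28, 9.10 and 9.46 in Ednrb NCC null embryos and 9.46, 9.69 and 9.27 in wild type embryos. The genotypes overlapped, and the widest difference was 0.28 between the mutants (adjusted p = 0.312). Cldn23, a claudin of the colon epithelium, stood at 9.42, 10.01 and 9.50 in Ednrb null embryos, 9.999, 9.67 and 9.97 in Ednrb NCC null embryos and 9.64, 9.41 and 9.58 in wild type embryos. Ednrb NCC null lay above wild type without overlap, by 0.34 (adjusted p = 0.296).

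Cldn12, which takes part in calcium uptake through the intestinal epithelium, was lowest in Ednrb null hindguts on both probe sets. The brighter stood at 10.09, 10.28 and 9.95 in Ednrb null embryos, 10.37, 10.51 and 10.53 in Ednrb NCC null embryos and 10.37, 10.45 and 10.49 in wild type embryos. All Ednrb null arrays lay below the other 6, and the difference was -0.33 from wild type (adjusted p = 0.0942) and -0.36 from Ednrb NCC null (adjusted p = 0.0709). After quantile normalization the same differences were -0.39 (adjusted p = 0.0418) and -0.39 (adjusted p = 0.0442). That from Ednrb NCC null also passed with array weights (0.0256) and without Ednrb null array 37 (0.0393). The dimmer probe set differed by -0.24 from wild type (adjusted p = 0.429) and by -0.36 from Ednrb NCC null (adjusted p = 0.206).

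Ocln encodes occludin, which sits beside claudins in the junction strands. Its brighter probe set, 1448873_at, stood at 9.26, 9.42 and 8.92 in Ednrb null embryos, 9.78, 9.71 and 9.83 in Ednrb NCC null embryos and 9.46, 9.43 and 9.15 in wild type embryos. Its dimmer probe set, 1440220_at, stood at 8.78, 9.07 and 8.77 in Ednrb null embryos, 9.33, 9.34 and 9.47 in Ednrb NCC null embryos and 9.16, 9.14 and 9.17 in wild type embryos. On both, the 3 Ednrb NCC null arrays were the highest of the 9.

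Ocln was lower in Ednrb null than in Ednrb NCC null hindguts by a log2 difference of -0.57 ± 0.13 (SE), 1.49-fold, on the brighter probe set (adjusted p = 0.0339) and by -0.51 ± 0.10 (SE), 1.42-fold, on the dimmer (adjusted p = 0.0153). Ednrb NCC null differed from wild type by 0.42 (adjusted p = 0.114) and 0.23 (adjusted p = 0.263), and Ednrb null from wild type by -0.15 (adjusted p = 0.628) and -0.28 (adjusted p = 0.152). The 2 probe sets correlated at r = 0.86 over the 9 arrays. The call of the brighter was not kept without Ednrb null array 29 (adjusted p = 0.0932) or 41 (0.091) or Ednrb NCC null array 2 (0.0807), 5 (0.0839) or 6 (0.121). That of the dimmer was not kept without Ednrb null array 29 (0.0793) or 41 (0.0602) or Ednrb NCC null array 6 (0.0723).

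With the Actb 3' minus 5' difference as a covariate, the differences of Ednrb null from Ednrb NCC null were -0.54 for Cldn4, -1.14 for Cldn7 and -0.57 and -0.58 for Ocln. Their adjusted p were 0.295, 0.156, 0.381 and 0.184, and no member probe set was called. Without the covariate the same differences were -0.46, -0.85, -0.57 and -0.51. In the fit with the covariate 0.628% of all probe sets were called between the mutants, against 4.41% without it, so calls were lost across the array.

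Tjp1, the scaffold, stood at 11.79, 11.55 and 11.45 in Ednrb null embryos, 11.60, 11.35 and 11.13 in Ednrb NCC null embryos and 11.49, 11.69 and 11.14 in wild type embryos. The genotypes overlapped in all 3 comparisons. The differences were 0.16 for Ednrb null against wild type (adjusted p = 0.684), -0.08 for Ednrb NCC null against wild type (adjusted p = 0.863) and 0.24 for Ednrb null against Ednrb NCC null (adjusted p = 0.512).

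The other genes of the junction were described by the brightest probe set of each, where the share of 18193 genes called gives the background. Against wild type it was 4.79% in Ednrb null hindguts (2.51% higher, 2.29% lower) and 3.9% in Ednrb NCC null hindguts (2.92% higher, 0.984% lower). Between the mutants it was 5.29% (1.56% higher, 3.73% lower in Ednrb null hindguts). Of 13 other claudins, 6 had a mean level under 6. None of the 13 was called in Ednrb null against wild type hindguts in limma. Cldn8, a sealing claudin of the distal colon and kidney, was the only one called in Ednrb NCC null against wild type hindguts and between the mutants.

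Cldn8 stood at 10.64, 10.88 and 10.16 in Ednrb null embryos, 11.23, 11.37 and 11.36 in Ednrb NCC null embryos and 10.44, 10.53 and 10.31 in wild type embryos. The Ednrb NCC null arrays lay above the other 6. They exceeded wild type by 0.89 ± 0.15 (SE; adjusted p = 0.0109), and by 0.87 without Ednrb NCC null array 5 (adjusted p = 0.0504). Ednrb null differed from Ednrb NCC null by -0.76 ± 0.15 (SE; adjusted p = 0.0205). That call was not kept without Ednrb null array 29 (adjusted p = 0.06) or Ednrb NCC null array 5 (0.0786) or 6 (0.0793), nor with the Actb covariate (-0.97, adjusted p = 0.149), with which 0 of the 13 were called between the mutants. In that fit 0.628% of all probe sets were called, against 4.41% without the covariate.

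Of 29 other tight junction genes, 1 rose and 0 fell against wild type in each mutant, with a median of 0.02 in Ednrb null hindguts (0.04 over all genes) and 0.14 in Ednrb NCC null hindguts (0.02 over all genes). Between the mutants 0 were higher and 4 lower in Ednrb null hindguts, with a median of -0.12 (0.01 over all genes). The 4 became 0 with the Actb covariate and 2 without Ednrb null array 29 or 41 or Ednrb NCC null array 5 or 6. Of all probe sets 0.628% were called with the covariate, against 4.41% in the main fit. Without those arrays 1.92%, 2.42%, 2.26% and 2.03% were called, in that order. The 1 that rose in Ednrb NCC null hindguts became 3 with array weights or without Ednrb null array 41 and 0 without Ednrb NCC null array 5 or 6 or wild type array 1B or 1D. There 4.91%, 3.45%, 1.88%, 1.59%, 1.65% and 4.38% of all probe sets were called in that order, against 3.58% in the main fit. Cgnl1, which encodes the junction protein paracingulin, averaged 10.65 ± 0.13 in Ednrb null and 10.10 ± 0.26 in wild type hindguts (SD, n = 3 each), a difference of 0.55 (adjusted p = 0.0324 in limma). Its 4 dimmer probe sets differed by 0.17, 0.24, 0.30 and 0.21, none of them called. The Cgnl1 call was not kept without Ednrb null array 29 (adjusted p = 0.133), 37 (0.0504) or 41 (0.085), Ednrb NCC null array 5 (0.0554), or wild type array 1B (0.0995) or 1D (0.0678), nor in a fit of those 2 genotypes alone (0.0871) or with the Actb covariate (0.39, adjusted p = 0.588).

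The 4 genes that fell in Ednrb null against Ednrb NCC null hindguts were Marveld3, a membrane protein related to occludin, Igsf5, an adhesion molecule of the junction, Tjp3, a scaffold related to Tjp1, and Crb3, a polarity protein of the apical membrane. Marveld3 averaged 7.91 ± 0.20 in Ednrb null embryos and 8.60 ± 0.13 in Ednrb NCC null embryos (SD, n = 3 each), a difference of -0.69 (adjusted p = 0.00763 in limma). Its dimmer probe sets differed by -0.56 (adjusted p = 0.0579) and -0.03 (0.918), neither of them called. Igsf5 averaged 8.36 ± 0.30 in Ednrb null embryos, 9.14 ± 0.11 in Ednrb NCC null embryos and 8.48 ± 0.07 in wild type embryos (SD, n = 3 each). It fell by a log2 difference of -0.79 in Ednrb null against Ednrb NCC null hindguts (adjusted p = 0.00824 in limma) and was 0.66 higher in Ednrb NCC null than in wild type hindguts (adjusted p = 0.0221). The Marveld3 and Igsf5 calls between the mutants were kept without any 1 array, but not with the Actb covariate, where Marveld3 differed by -0.89 (adjusted p = 0.0709) and Igsf5 by -0.97 (adjusted p = 0.096). The Igsf5 call against wild type was not kept without Ednrb NCC null array 5 (adjusted p = 0.0825) or 6 (0.0936) or wild type array 1B (0.0706), 1C (0.0508) or 1D (0.0525).

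Tjp3 differed by -0.63 (adjusted p = 0.0191) between the mutants, and the call was not kept without Ednrb null array 29 (0.0768) or 41 (0.0723) or Ednrb NCC null array 5 (0.0619) or 6 (0.0662). Crb3 differed by -0.46 (adjusted p = 0.025), and the call was not kept without Ednrb null array 29 (0.102), 37 (0.0619) or 41 (0.0709) or Ednrb NCC null array 5 (0.0605) or 6 (0.0817). With the Actb covariate neither was called (Tjp3 0.139, Crb3 0.237).

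**Figure D5:**
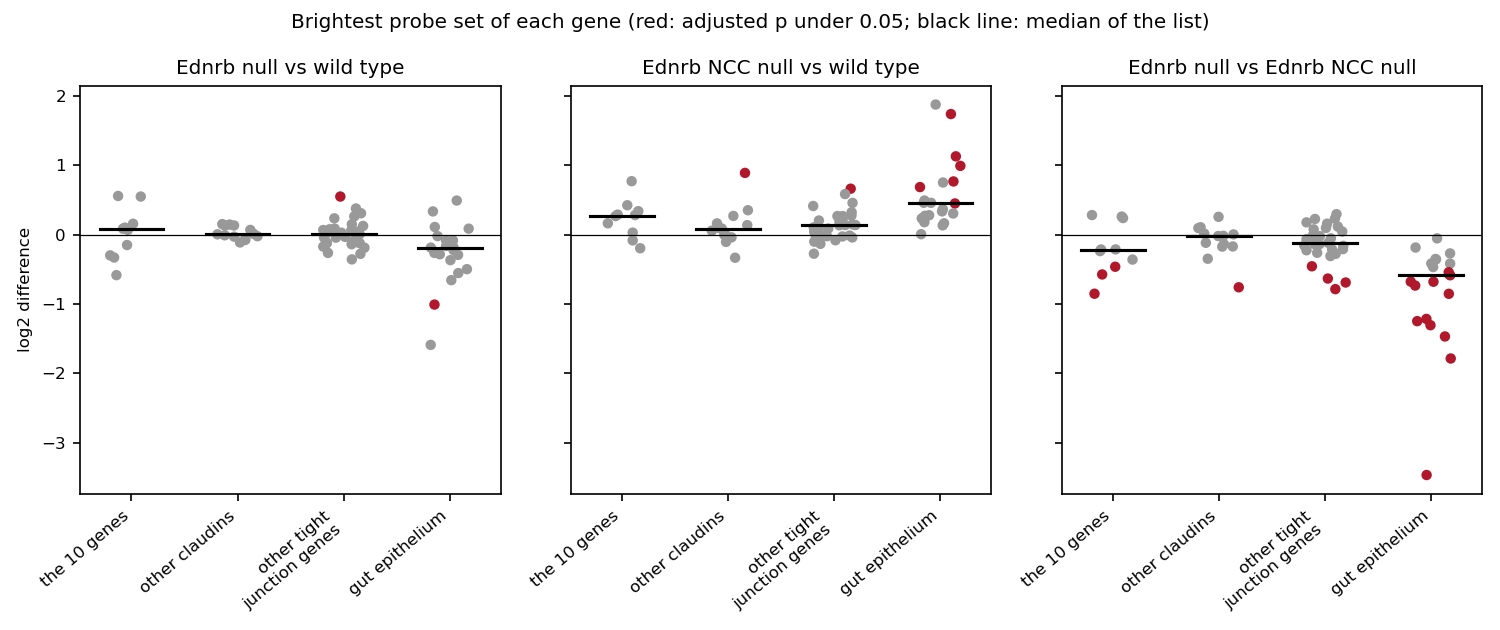
Log2 differences of the brightest probe set of each gene in the 10 members, 13 other claudins, 29 other tight junction genes and 21 gut epithelial markers, a panel per comparison, with calls in red and the median of each list as a black line. In the third panel 13 of the 21 gut epithelial markers are called lower, with a median of -0.59, against 3 of the 10 members. Of all genes, 3.73% are called lower there.

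Of 11 transcription factors known to act on claudin genes, 1 fell in Ednrb null against wild type hindguts: Cdx1, a regulator of intestinal epithelium, by a log2 difference of -1.21 (adjusted p = 0.00651 in limma). Of all genes, 2.29% were called lower there and 0.984% in Ednrb NCC null against wild type hindguts. Snai2, a repressor that binds E-boxes, was the 1 that fell in Ednrb NCC null against wild type hindguts, by -0.39 (adjusted p = 0.029). Its call was not kept without Ednrb null array 29 (adjusted p = 0.0511), Ednrb NCC null array 5 (0.0609) or 6 (0.117), or wild type array 1B (0.0982) or 1C (0.0913), nor in a fit of those 2 genotypes alone (0.0693) or with the mean of its probe sets (0.0642). The dimmer Snai2 probe set differed by -0.38 and was not called (adjusted p = 0.229).

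Between the mutants, Snai2 was 0.38 higher in Ednrb null than in Ednrb NCC null hindguts (adjusted p = 0.0293), Cdx1 differed by -1.81 (adjusted p = 0.00106) and Hnf4a, a factor of gut epithelial differentiation, by -0.60 (adjusted p = 0.0464). Without 1 array, the Snai2 call was not kept for Ednrb null array 29 (0.123), 37 (0.0735) or 41 (0.066) or Ednrb NCC null array 5 (0.0597) or 6 (0.119). The Hnf4a call was not kept for Ednrb null array 29 (0.0985), 37 (0.0924) or 41 (0.148), Ednrb NCC null array 2 (0.0683), 5 (0.075) or 6 (0.165), or wild type array 1D (0.0589). The other 3 Hnf4a probe sets differed by -0.45, 0.00 and -0.16, none of them called, and the mean of its probe sets by -0.30 (adjusted p = 0.28). The dimmer Snai2 probe set was 0.42 higher in Ednrb null hindguts and was not called (adjusted p = 0.176). With the Actb covariate neither Hnf4a (0.21) nor Snai2 (0.36) was called.

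Markers of gut epithelium, the cells that carry these junctions, were measured in the same comparisons. Their mean over 21 genes was 9.81 to 10.22 in Ednrb null embryos, 10.67 to 10.98 in Ednrb NCC null embryos and 10.15 to 10.38 in wild type embryos. Against wild type, 1 fell in Ednrb null hindguts, Foxa3, by a log2 difference of -1.01 (adjusted p = 0.0034 in limma). In Ednrb NCC null hindguts 6 rose against wild type, among them Phgr1 by 1.74 (adjusted p = 0.000936), Tspan8 by 0.77 (adjusted p = 0.0109), Vil1 by 0.99 (adjusted p = 0.0278) and Lgals4 by 0.69 (adjusted p = 0.0306). Between the mutants 13 were lower in Ednrb null hindguts, led by Foxa3 at -1.47, Agr2 at -3.47, Muc13 at -1.79 and Tspan8 at -0.85, with adjusted p of 0.000622 to 0.00551. The dimmer Muc13 probe set differed by -0.50 (adjusted p = 0.1055), while those of Agr2 and Tspan8 were all called lower. Of all genes, 2.29% were called lower in Ednrb null and 2.92% higher in Ednrb NCC null against wild type. Between the mutants 3.73% were called lower. The 1 fall became 2 with array weights or without wild type array 1C or 1D. There 6.49%, 5.24% and 3.99% of all probe sets were called, against 5.03% in the main fit. The 6 rises became 3 without Ednrb null array 29, 1 without Ednrb NCC null array 5 or wild type array 1B, and 2 without Ednrb NCC null array 6 or wild type array 1C. There 2.8%, 1.88%, 1.65%, 1.59% and 2.53% of all probe sets were called in that order, against 3.58% in the main fit. The 13 lower between the mutants became 8 without Ednrb NCC null array 6 and 4 with the Actb covariate. There 2.03% and 0.628% of all probe sets were called, against 4.41% in the main fit. With the covariate, Agr2 (adjusted p = 0.0781) and Muc13 (0.0525) were among those not kept. Whole tissue was measured, so fewer epithelial cells and less RNA per epithelial cell cannot be told apart, and the part of the epithelial share in the differences of the members was not tested.

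The Tspan8 rise in Ednrb NCC null against wild type hindguts was not kept without Ednrb NCC null array 5 (adjusted p = 0.053) or wild type array 1B (0.0531). That of Vil1 was not kept without Ednrb NCC null array 5 (0.0979) or 6 (0.112) or wild type array 1B (0.12) or 1C (0.0726). That of Lgals4 was not kept without Ednrb null array 29 (0.0511), Ednrb NCC null array 5 (0.12) or 6 (0.1), or wild type array 1B (0.125) or 1C (0.0888).

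Among the other cell types the tissue could hold, 0 of 7 urogenital and 0 of 8 endothelial markers were called in any comparison in limma. The urogenital markers varied between arrays, with a list mean of 7.12 to 7.86 in wild type and 7.20 to 7.74 in Ednrb null embryos. Among them Krt5, given outside the naming rule after its values were seen, stood at 10.68, 7.76 and 10.81 in wild type embryos. The absence of calls there does not show equal levels. Of 6 mesothelial markers 1, Msln, rose in Ednrb NCC null against wild type hindguts. Of 6 smooth muscle markers 1 fell in Ednrb null against wild type and 2 against Ednrb NCC null hindguts. Of 9 macrophage markers 2 rose in Ednrb NCC null against wild type hindguts and 2 fell in Ednrb null against Ednrb NCC null hindguts. Of 5 red blood cell genes 2 rose in Ednrb null against wild type hindguts, 1 rose in Ednrb NCC null against wild type hindguts and 2 rose in Ednrb null against Ednrb NCC null hindguts. Between the mutants, 6 of 6 smooth muscle and 8 of 9 macrophage markers were lower in Ednrb null, with medians of -0.51 and -0.48. Endothelial markers were higher for 7 of 8, with a median of 0.18 (0.01 over all genes). Of all genes, 3.73% were called lower and 1.56% higher there. Against wild type, 2.51% were called higher and 2.29% lower in Ednrb null hindguts, and 2.92% and 0.984% in Ednrb NCC null hindguts. The part of these cell types in the differences of the members was not tested.

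Each member's level was also taken relative to the mean of Epcam, Cdh1, Krt8, Krt18 and Krt19 in the same array, a baseline of epithelial genes that averaged 12.19 ± 0.25 in Ednrb null embryos, 12.71 ± 0.07 in Ednrb NCC null embryos and 12.33 ± 0.08 in wild type embryos (SD, n = 3 each). The baseline itself differed by -0.52 in Ednrb null against Ednrb NCC null and by 0.37 in Ednrb NCC null against wild type hindguts, both without overlap. Its 5 genes are all among the 21 gut epithelial markers. Between the mutants 3 of the 5 were called lower in Ednrb null hindguts. Levels relative to the baseline carry this shift for all genes alike. On that scale, Cldn3 was -1.61, -1.66 and -1.62 in Ednrb null embryos, -2.57, -2.40 and -2.24 in Ednrb NCC null embryos and -2.62, -2.06 and -2.28 in wild type embryos. The Ednrb null arrays were close together and lay above all other arrays.

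Against wild type, 2 members lay higher without overlap in Ednrb null on this scale, Cldn3 and Cldn23, where 14.8% of all genes did, and 0 lay lower (2.17% of all genes). In Ednrb NCC null against wild type hindguts 2 lay lower, Cldn6 and Cldn12, where 62% of all genes did, and 0 lay higher (1.41% of all genes). Between the mutants 4 lay higher in Ednrb null hindguts, Cldn3, Cldn6, Cldn12 and Tjp1, where 71.3% of all genes did, and 0 lay lower (1.45% of all genes). On this scale Cldn4, Cldn7 and Ocln of the mutants overlapped: Ocln was -2.91, -3.03 and -3.03 in Ednrb null embryos and -2.85, -3.02 and -2.94 in Ednrb NCC null embryos. The choice of baseline changed which members these were. With Epcam alone as the baseline, 2 lay higher in Ednrb null against Ednrb NCC null hindguts, Cldn3 and Cldn6 (37.3% of all genes), and 2 lay lower, Cldn7 and Ocln (2.42% of all genes). Ocln was then -3.30, -3.41 and -3.48 in Ednrb null embryos and -3.04, -3.28 and -3.22 in Ednrb NCC null embryos. The Cldn12 difference between the mutants was 0.16 on the 5-gene baseline and -0.003 on Epcam alone, and that of Cldn4 was 0.05 and -0.11. Against wild type, with Epcam alone, Cldn3 lay higher in Ednrb null hindguts (9.73% of all genes) and Cldn4 and Cldn12 lower (4.63%), while Cldn23 overlapped. On the same scale Cldn4, Cldn6 and Cldn12 lay lower in Ednrb NCC null than in wild type hindguts (52.5%).

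The smallest p an exact 2-sided permutation test of 3 against 3 arrays can give is 0.1, and after adjustment over the 30 comparisons the smallest was 0.333, so none could pass. On the 5-gene baseline without 1 array, the 2 in Ednrb null against wild type became 5 without Ednrb null array 37 or wild type array 1B or 1C and 4 without Ednrb null array 41. The 2 in Ednrb NCC null against wild type became 4 without wild type array 1D, and the 4 between the mutants became 7 without Ednrb null array 29. Leaving out an array can only keep or raise such a count, so these rises do not test how stable it is. The share of all genes without overlap in these smaller sets is not given here.

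The genes most like each called member over the 9 arrays, among 11319 genes with a mean level of 7 or more, were Phax, Cda and Fkbp3 for Cldn3 (Pearson r = 0.97, 0.97 and 0.96). For Cldn4 they were Tpcn1, Camsap3 and St14 (0.98, 0.97 and 0.97), and for Cldn7 Fads2, Klf5 and Ihh (0.96, 0.94 and 0.94). For Ocln they were Mansc1, Pcmt1 and Igsf5 (0.97, 0.97 and 0.96). These are descriptions over 9 arrays that share their genotype groups.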

How the data were processed

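Hindgut RNA of 9 mouse arrays, 3 per genotype, was analysed, with groups taken from the genotype labels. Each deposited value was the RMA intensity of a probe set on an array, per the submitters' processing notes. The RMA version and chip definition were not stated there. They were on the linear scale and were converted to log2 with a pseudocount of 0. RMA narrows differences of dim probe sets. Arrays have no read depth, and their number limits the precision.

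All 45037 probe sets other than array controls were fitted on all 9 arrays with limma 3.58.1 in R 4.3.3 (lmFit and eBayes, 1 mean per genotype), with Benjamini-Hochberg adjustment over all of them, after a test on simulated data. The comparison of the mutants is the test of whether their differences from wild type differ. Probe sets were named from the platform annotation, where 34945 named 1 gene, 932 several and 9160 none; those naming several were used for no gene. Lists used the brightest probe set of each gene by mean over all arrays. Every member could be named; of each other list, up to 4 called genes with the smallest p per comparison. Likeness was Pearson's r over the 9 arrays with the brightest probe set of every gene whose mean log2 level was 7 or more, and 3 genes were named per called member. The members and lists were chosen with earlier results of these data known. Alternatives were median centring, quantile normalization, leaving out the dimmest 40% of probe sets, fitting only the 2 groups compared, trended and robust moderation, array weights, the Actb 3' minus 5' difference as a covariate, 1 value per gene, Epcam alone as the baseline, and leaving out each array. No batch is given in the labels.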

Additional observations from a re-analysis of the deposited data

Results flagged for a closer look

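Differences between the mutants are the test of whether the same contrast with wild type differs between them. Ednrb null minus Ednrb NCC null was past the threshold (limma, adjusted p under 0.05) for these members, in log2: Cldn4 at -0.46, Cldn7 at -0.85 and Ocln at -0.57 and -0.51 on its 2 probe sets. Among other junction genes it was past the threshold for Cldn8 at -0.76, Marveld3 at -0.69, Igsf5 at -0.79, Tjp3 at -0.63 and Crb3 at -0.46. With the Actb covariate no member and none of these 5 was past it, where 0.628% of all probe sets were, against 4.41% without the covariate. Among regulators of claudin genes it was Cdx1 at -1.81, Hnf4a at -0.60 and, in the other direction, Snai2 at 0.38. Of the gut epithelial markers named, it was Foxa3 at -1.47, Agr2 at -3.47, Muc13 at -1.79 and Tspan8 at -0.85. Of these regulators and markers, Hnf4a, Snai2, Agr2 and Muc13 were not past it with the Actb covariate. Groups of 3 arrays were not tested for outlying arrays.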

How the results depend on the processing

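No paired analysis was possible because the genotypes share no replicate numbers. Of the 16 member probe sets, 1 was called in Ednrb null against wild type hindguts. The count became 2 after quantile normalization (Cldn3 and Cldn12) and with array weights (both Cldn3), where 5.1% and 6.49% of all probe sets were called. With the Actb covariate it was 0, where 1.2% of all probe sets were called. Without 1 array it was 0 to 1 (2.95% to 5.24% of all). With the brightest probe set per gene or the mean of a gene's probe sets, 0 of the 10 genes were called. The brightest probe set per gene leaves out the called Cldn3 probe set, so that setting did not test it again. The 4 called in Ednrb null against Ednrb NCC null hindguts became 0 with the Actb covariate (0.628% of all probe sets called). Without 1 array they became 0 to 4 (1.92% to 4.58% of all). Cldn12 newly passed in that comparison after quantile normalization, with array weights and without Ednrb null array 37. The dimmest Cldn3 probe set did so with array weights, trended and robust moderation, without the dimmest 40% and without wild type array 1C. In Ednrb NCC null against wild type hindguts the count was 0 under every alternative run. With the Actb covariate, Cldn15 turned to -0.14 (Ednrb null against wild type) and the brightest Cldn3 probe set to -0.16 (Ednrb null against Ednrb NCC null). Without 1 array, uncalled differences near 0 changed sign. In Ednrb null against wild type hindguts these were Cldn2 (-0.004 to 0.112), Cldn6 (-0.015 to 0.196) and Cldn23 (-0.083 to 0.214). In Ednrb NCC null against wild type hindguts they were Cldn12 (-0.004 to 0.077), Tjp1 (-0.232 to 0.043) and the dimmest Cldn3 probe set (-0.054 to 0.261). Relative to the epithelial baseline, members not overlapping without 1 array numbered 2 to 5 in Ednrb null against wild type, 2 to 4 in Ednrb NCC null against wild type and 4 to 7 in Ednrb null against Ednrb NCC null hindguts. Such counts can only stay or rise when an array is left out. The causes of these changes were not tested, other than that fewer arrays leave fewer degrees of freedom. Over the single differences tested and all alternatives, 911 values kept their direction and side of the threshold, 96 fell short of it, 9 newly passed it and 13 changed sign. No detection call was used, so whether low signals such as those of Cldn2 stand above background was not tested.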

Other observations

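The level of Cldn3 against that of its chromosomal neighbour Cldn4 separated the Ednrb null arrays from the others, a measure chosen after the values were seen and given with no test. The log2 intensity of the brightest Cldn3 probe set minus that of Cldn4 was 0.95, 1.01 and 0.86 in Ednrb null arrays, 0.04, 0.36 and 0.25 in Ednrb NCC null arrays and -0.08, 0.25 and 0.10 in wild type arrays. Only differences of this measure between arrays carry meaning, since levels of 2 probe sets are not comparable. The same measure against Cldn7 was -0.69, -0.12 and -0.39 in Ednrb null arrays, -1.56, -1.38 and -1.60 in Ednrb NCC null arrays and -1.47, -1.71 and -1.43 in wild type arrays. Against Ocln it was 1.30, 1.37 and 1.41 in Ednrb null arrays, 0.27, 0.61 and 0.69 in Ednrb NCC null arrays and 0.31, 0.74 and 0.93 in wild type arrays. Both of these also separated the Ednrb null arrays from the others, though neither gene is a neighbour of Cldn3. The share of all gene pairs that separate these arrays is not given here.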
